A study of Homo sapiens with 96 samples.

Results

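GSK591 and MS023 were set directly against each other after 7 days of treatment, across the alternative splicing events of A549, a cell line grown from a lung adenocarcinoma. GSK591 inhibits PRMT5, the main Type II protein arginine methyltransferase (PRMT), and MS023 inhibits the Type I PRMTs. The comparison holds the 6 poly(A)-RNA seq libraries of these groups out of 96 samples in the series, 3 from cells given 1 µM GSK591 for 7 days and 3 from cells given 1 µM MS023 for 7 days. Control cells received 0.01% DMSO for 7 days (3 libraries), and the same inhibitors and dose at 4 and 2 days (3 libraries per group) gave the contrast in other libraries. The labels do not say whether the libraries of a group come from separate cultures, so the tests measure the spread between these libraries, which may be technical. Each inhibitor had been set against DMSO in a table of its own. Events were therefore joined on type, chromosome, strand, and all coordinates, and the DMSO counts and effective lengths were the same in both tables for every joined event (0 differed). The join held 71594 skipped exons (SE), 14295 pairs of mutually exclusive exons (MXE), 6835 alternative 3′ splice sites (A3SS), 4407 alternative 5′ splice sites (A5SS), and 4317 retained introns (RI). A further 15169 SE were listed for GSK591 alone and 16091 for MS023 alone, and these were not compared.

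Splicing joins exons by removing introns between a donor (5′ splice site) and an acceptor (3′ splice site). U1 snRNP reads the donor, U2AF and U2 snRNP read the acceptor and the branch point, and SR and hnRNP proteins bound to the exon and its flanks make either choice more or less likely. Type I PRMTs place asymmetric dimethylarginine, mostly on RG-rich stretches of hnRNP, FET, and export proteins, whereas PRMT5 places symmetric dimethylarginine, with the Sm proteins of the snRNPs among its best known substrates. The inclusion level Ψ is the share of transcripts that carry the alternative segment, computed here from reads scaled to effective length, as inclusion reads over inclusion plus skipping reads. For SE the segment is the exon and for RI the intron. For A5SS it is the stretch between an upstream and a downstream donor, included when the downstream donor is used, and for A3SS the stretch between 2 acceptors, included when the upstream acceptor is used. For MXE, Ψ is the share of the upstream exon of the pair, in the order of transcription. ΔΨ is Ψ with GSK591 minus Ψ with MS023 unless stated otherwise. In bulk RNA, a shift in every cell and a larger shift in some cells cannot be told apart, nor can a change in splicing and a change in the decay of 1 form.

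The 6 libraries each gave 38306391 to 41982703 reads on SE, 12186244 to 13272747 on MXE, 3484263 to 3658580 on A3SS, 2728737 to 2842442 on A5SS, and 3133389 to 3249551 on RI, with 1 read entering several events where these share an exon. No library stood apart in depth. Any pair of replicates of a group differed by 1.67 to 2.46 times the sampling variance, more than sampling alone would give. Each library was counted as a sample of its own, although this spread does not tell separate cultures from technical libraries. Of the epithelial markers checked, KRT8, KRT18, CDH1, and EPCAM had counted events and KRT19 had none. Of the markers of blood, endothelial, and stromal cells, PTPRC, CD3E, COL1A2, PECAM1, and CDH5 had no event, and COL1A1 had 2 with at most 119 reads in a library.

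An event was tested where each of the 6 libraries had at least 10 reads, with a quasi-binomial model of both counts, and called at an adjusted p under 0.05 (Benjamini-Hochberg within the event type). Of 84870 events tested, 10873 in 4572 genes were called (12.8%). These counts rest on a dispersion prior chosen after seeing the data, and with a prior from all events 313 SE and 48 A3SS were called. The share called went from MXE (1056 of 13007, 8.12%) over A3SS (600 of 5520, 10.9%) and SE (6870 of 59004, 11.6%) to A5SS (863 of 3570, 24.2%) and RI (1484 of 3769, 39.4%). The direction of the calls differed by type. Among called SE, 2998 had the higher Ψ with GSK591 and 3872 with MS023 (5.08% and 6.56% of SE tested). Called MXE leaned to the upstream exon with GSK591 relative to MS023 (618 against 438, 4.75% and 3.37% of those tested). Against DMSO, called MXE leaned to the downstream exon with either inhibitor (values below). Called A3SS leaned to the upstream acceptor (361 against 239, 6.54% and 4.33%) and called A5SS to the downstream donor (551 against 312, 15.4% and 8.74%). Called RI were mostly more retained with GSK591 (1224 against 260, 32.5% and 6.9%). Accordingly, 58.5% of called MXE, 60.2% of A3SS, 63.8% of A5SS, and 82.5% of RI carried more of the inclusion form with GSK591, compared with 43.6% of called SE. The share of events with the higher Ψ under GSK591 was not tested against chance, since events of 1 gene share reads.

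**Figure D1:**
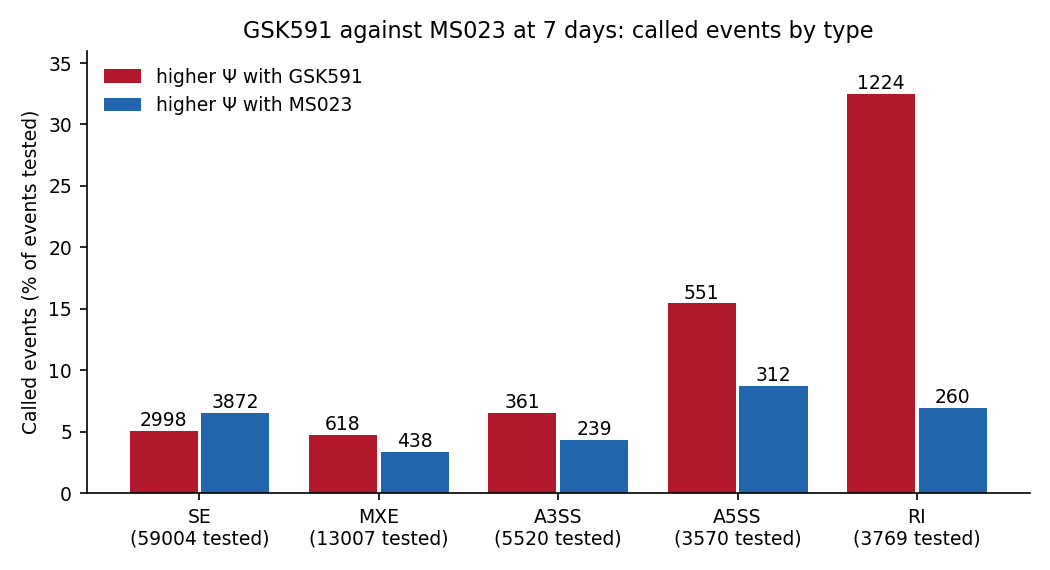
Events called in GSK591 against MS023 at 7 days, as a percent of the events tested of each type, split by the inhibitor with the higher Ψ. The number above each bar is the number of events, and SE is the only type with the taller bar on the MS023 side (3872 against 2998).

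Most differences were small. An absolute ΔΨ of at least 0.1 was reached by 2986 called SE (5.06% of those tested), 509 MXE (3.91%), 288 A3SS (5.22%), 422 A5SS (11.8%), and 736 RI (19.5%). The largest differences were lopsided by type, as 362 called SE were at least 0.3 higher with MS023 and 210 with GSK591, whereas for RI the numbers were 16 and 178. The libraries of both groups did not overlap in 88.4% of called SE, 97.3% of MXE, 92.8% of A3SS, 89.6% of A5SS, and 92.2% of RI, compared with 18.8%, 22.9%, 22.4%, 32%, and 45.1% of all events tested. The mean Ψ of a library barely moved outside RI. It was 0.822 ± 0.0008 (SD, n = 3) with GSK591 and 0.824 ± 0.00051 with MS023 for SE, 0.612 ± 0.00134 and 0.599 ± 0.000564 for A5SS, and 0.393 ± 0.00261 and 0.347 ± 0.000382 for RI. In each of the 5 types every GSK591 library lay on 1 side of every MS023 library in this mean, and the two-sided exact permutation p was 0.1, the smallest that 3 libraries against 3 allow. For SE the median Ψ per library had the opposite order, at 0.992 with GSK591 and 0.991 with MS023, so the direction of the overall SE level depended on the summary used. The exact permutation p of the medians was 0.1 for SE, A3SS, A5SS, and RI and 0.2 for MXE, where the medians overlapped (0.494 ± 0.00509 and 0.491 ± 0.00123).

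The test set how many events passed. Limma on log2 odds called 2870 SE (4.86%), 462 MXE (3.55%), 67 A3SS (1.21%), 412 A5SS (11.5%), and 1114 RI (29.6%). The events called by the quasi-binomial test, limma, and limma voom on paired counts alike numbered 1484 SE (2.52% of those tested, 583 higher with GSK591 and 901 with MS023), 358 MXE (2.75%, 202 and 156), 57 A3SS (1.03%, 38 and 19), 349 A5SS (9.78%, 221 and 128), and 1011 RI (26.8%, 875 and 136). Each type thus leaned to the same side as in the quasi-binomial test. Counts also fell when 1 of the 6 libraries was left out, to between 3410 and 4784 SE and between 325 and 454 A3SS. For SE and A5SS the quasi-binomial fit gave every event the same dispersion (1.44 and 1.55), so that the spread of a single event did not enter its p. The limma adjusted p on log2 odds, which uses that spread, is therefore given beside the named events, together with that of voom where voom alone lost the call. Events with at least 100 reads of the rarer form had a higher mean dispersion, 1.996 in 5208 SE and 1.836 in 856 A5SS. The shared value was below these means, so the quasi-binomial p of such well covered SE and A5SS tended to be too small. In A3SS, MXE, and RI the spread of a single event did enter its p, with little weight in A3SS. Their prior dispersion (1.51, 1.55, and 1.83) also lay below the mean of such well covered events (1.87, 2.03, and 2.33). The p of these events can therefore be too small as well. Scaling by effective length gives each read inside a long segment less weight, and the ΔΨ from unscaled reads is added for each named event in which it differed by over 1.5 times. Read numbers of an event count both forms together. In long segments with a small ΔΨ from unscaled reads, Ψ can therefore rest on few skipping reads, and a Ψ of 1 means that none was counted.

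Short exons selected from the named events are shown here, not all of them those of largest difference or best coverage. They have 20 intron bases before and 6 after them in lower case and the exon in capitals (GRCh37, strand of the gene). Each lies whole within the annotated coding sequence. STK39, LUC7L, EXOC7, and LRRFIP2 exons were included more with GSK591, and IFI27L1, PCBP2, SRSF10, and MAP3K7 exons more with MS023.
STK39 (chr2:168921829-168921891, - strand): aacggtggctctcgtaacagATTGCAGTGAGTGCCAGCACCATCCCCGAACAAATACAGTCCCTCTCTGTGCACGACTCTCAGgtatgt
LUC7L (chr16:278332-278401, - strand): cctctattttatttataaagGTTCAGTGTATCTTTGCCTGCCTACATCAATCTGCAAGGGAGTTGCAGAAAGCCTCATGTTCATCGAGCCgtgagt
EXOC7 (chr17:74087224-74087316, - strand): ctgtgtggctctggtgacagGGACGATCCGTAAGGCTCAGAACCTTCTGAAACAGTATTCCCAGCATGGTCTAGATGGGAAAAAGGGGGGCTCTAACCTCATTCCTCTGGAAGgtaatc
LRRFIP2 (chr3:37132958-37133029, - strand): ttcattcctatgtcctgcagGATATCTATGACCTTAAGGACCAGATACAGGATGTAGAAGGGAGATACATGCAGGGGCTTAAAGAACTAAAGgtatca
IFI27L1 (chr14:94567085-94567117, + strand): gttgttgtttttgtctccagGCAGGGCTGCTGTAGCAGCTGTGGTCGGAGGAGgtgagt
PCBP2 (chr12:53861589-53861627, + strand): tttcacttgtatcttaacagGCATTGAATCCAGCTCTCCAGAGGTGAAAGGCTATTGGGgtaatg
SRSF10 (chr1:24298063-24298113, - strand): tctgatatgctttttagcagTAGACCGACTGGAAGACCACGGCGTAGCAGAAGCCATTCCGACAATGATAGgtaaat
MAP3K7 (chr6:91254271-91254351, - strand): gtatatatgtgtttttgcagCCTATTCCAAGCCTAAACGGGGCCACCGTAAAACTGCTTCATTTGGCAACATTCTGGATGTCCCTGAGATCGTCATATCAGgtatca

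Among SE with the higher Ψ under GSK591, the largest differences were those of RAB11FIP3, TBL1X, ACSF3, MKI67, and STK39, 1 event per gene with at least 50 reads in each library. That GSK591 and MS023 libraries did not overlap was a condition for the largest events of every type. In the events named from gene lists it was not a condition, and no library overlapped there either. In RAB11FIP3, an effector of the recycling endosome GTPase RAB11, the exon of 135 bases at chr16:541134-541268 was included in most transcripts with 1 inhibitor and in few with the other. Its Ψ was 0.918, 0.938, and 0.792 with GSK591 and 0.259, 0.244, and 0.264 with MS023, and 0.592, 0.509, and 0.624 with DMSO, a ΔΨ of 0.627 ± 0.0462 (standard error, n = 3 and 3), so the DMSO libraries lay between both groups. TBL1X encodes a subunit of the NCoR and SMRT corepressor complexes. For its exon of 145 bases (chrX:9621585-9621729), Ψ was 0.843, 0.773, and 0.772 with GSK591 and 0.265, 0.145, and 0.11 with MS023, and 0.42, 0.347, and 0.385 with DMSO (ΔΨ 0.623 ± 0.0526). ACSF3 encodes a mitochondrial malonyl-CoA synthetase, and its exon of 686 bases (chr16:89167070-89167755) gave a different pattern, in which GSK591 and DMSO libraries overlapped. Its Ψ was 0.875, 0.913, and 0.981 with GSK591 and 0.289, 0.332, and 0.381 with MS023, and 0.863, 0.699, and 0.905 with DMSO (ΔΨ 0.589 ± 0.0408, 0.249 from unscaled reads). GSK591 was also the closer of the inhibitors to DMSO at the exon of 1080 bases (chr10:129913192-129914271) of MKI67, the gene of the proliferation antigen Ki-67. There Ψ was 0.958, 0.969, and 0.943 with GSK591 and 0.309, 0.406, and 0.451 with MS023, and 0.862, 0.802, and 0.778 with DMSO (ΔΨ 0.568 ± 0.0424, 0.159 from unscaled reads). In STK39, a kinase upstream of cation-chloride cotransporters, MS023 was the closer to DMSO instead. Its Ψ was 0.961, 0.974, and 0.944 with GSK591 and 0.422, 0.493, and 0.451 with MS023, and 0.507, 0.598, and 0.55 with DMSO (ΔΨ 0.504 ± 0.0224). The adjusted p of these 5 exons was at most 6.23e-23 in the quasi-binomial test and 0.0156 to 0.026 in limma.

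Among SE with the higher Ψ under MS023, the largest were those of ARRDC1, IFI27L1, TMEM256-PLSCR3, DPY19L3, and C16orf13. In ARRDC1, which drives the budding of vesicles at the plasma membrane, an exon of 88 bases (chr9:140507875-140507962) was close to fully included with MS023. Its Ψ was 0.327, 0.363, and 0.217 with GSK591 and 1, 0.984, and 1 with MS023, and 0.786, 0.85, and 0.976 with DMSO (ΔΨ -0.692 ± 0.0443), the largest absolute ΔΨ among named events. The exon of 33 bases of IFI27L1, a relative of the interferon-induced IFI27, is printed above. For it, Ψ was 0.327, 0.25, and 0.23 with GSK591 and 0.884, 0.941, and 0.88 with MS023, and 0.577, 0.591, and 0.506 with DMSO (ΔΨ -0.632 ± 0.0354), with DMSO between both groups. TMEM256-PLSCR3 is a read-through of neighbouring genes, so its reads cannot be assigned to 1 of them. Its exon of 236 bases (chr17:7296920-7297155) had a Ψ of 0.258, 0.321, and 0.311 with GSK591 and 0.87, 0.895, and 0.877 with MS023, and 0.685, 0.654, and 0.799 with DMSO (ΔΨ -0.584 ± 0.021). DPY19L3 encodes a C-mannosyltransferase. Its exon of 1340 bases (chr19:32958380-32959719) varied more between replicates, as Ψ was 0.365, 0.35, and 0.252 with GSK591 and 0.755, 0.928, and 1 with MS023, and 0.935, 0.749, and 0.849 with DMSO (ΔΨ -0.572 ± 0.0809, -0.165 from unscaled reads). For C16orf13, in an exon of 175 bases (chr16:684889-685063) known from annotated decay transcripts, Ψ was 0.181, 0.148, and 0.171 with GSK591 and 0.718, 0.724, and 0.752 with MS023, and 0.665, 0.603, and 0.539 with DMSO (ΔΨ -0.565 ± 0.0142). The adjusted p was at most 4.24e-08 in the quasi-binomial test and 0.0156 to 0.0384 in limma, while in limma voom the p of DPY19L3 was 0.0717.

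**Figure D2:**
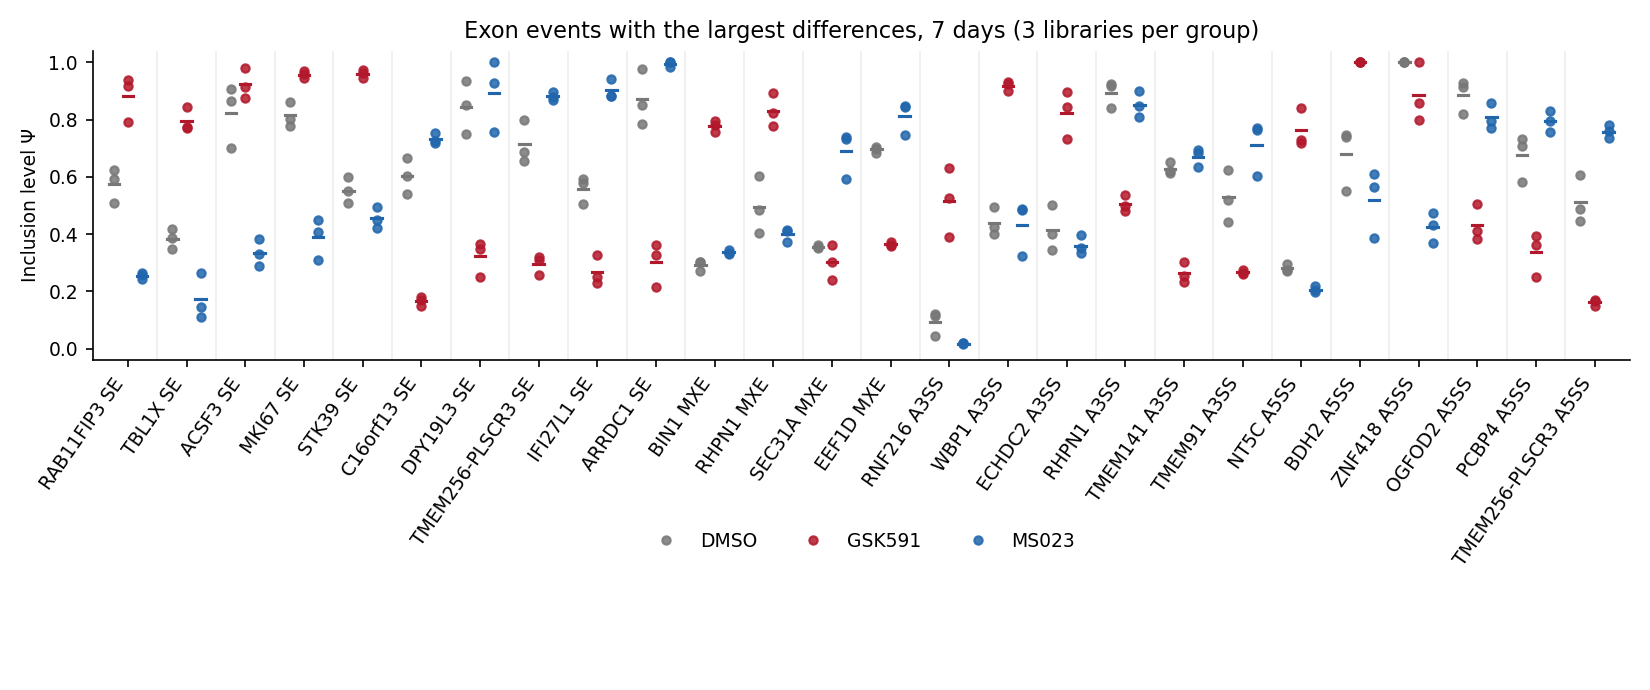
Inclusion level Ψ (vertical axis, 0 to 1) in each of 3 libraries with DMSO, GSK591, or MS023 at 7 days, for the exon events with the largest differences that did not overlap between the inhibitors. Points are libraries and bars are group means. DMSO lies between both inhibitors in events such as RAB11FIP3 and IFI27L1, closer to MS023 in WBP1 and BIN1, and closer to GSK591 in ACSF3 and SEC31A.

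Exons with opposite signs differed in length and in their flanking introns. For this description 1 event was kept for each of 45560 exons, the one with the most reads in its shallowest library. The median length was 132 bases for the 2402 called exons with the higher Ψ under GSK591 and 105 for the 3139 with the higher Ψ under MS023, beside 118 over all exons tested. Of 606 called exons of 28 to 60 bases (4207 tested), 148 were higher with GSK591 and 458 with MS023, beside 2402 and 3139 over all lengths. Of 101 called exons of at most 27 bases (460 tested), the numbers were 30 and 71. Of 368 called exons over 300 bases (2295 tested), on the other hand, 231 were higher with GSK591 and 137 with MS023. The intermediate lengths lay between, at 39%, 48.6%, and 56.2% higher with GSK591 for 61 to 120, 121 to 200, and 201 to 300 bases. The median depth of the shallowest library went from 93 reads in the shortest class to 247 in the longest, and its part in these shares was not tested. The introns beside the exons higher with MS023 were short, with medians of 1042 bases upstream and 901 downstream, compared with 2097 and 1932 over all exons and 1833 and 1936 for the exons higher with GSK591. At their donors G followed GT in 39.8% of the exons higher with MS023, in 31.6% of those higher with GSK591, and in 32.9% of all. The mean number of bases shared with the CAGGTAAGT consensus was 5.97, 6.23, and 6.26 of 9. A length divisible by 3, which keeps the reading frame, was found in 46.1% of exons higher with GSK591 and 43.8% of those higher with MS023, beside 41.4% of all and 44.3% of the exons that were not called with a mean Ψ of 0.05 to 0.95.

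**Figure D3:**
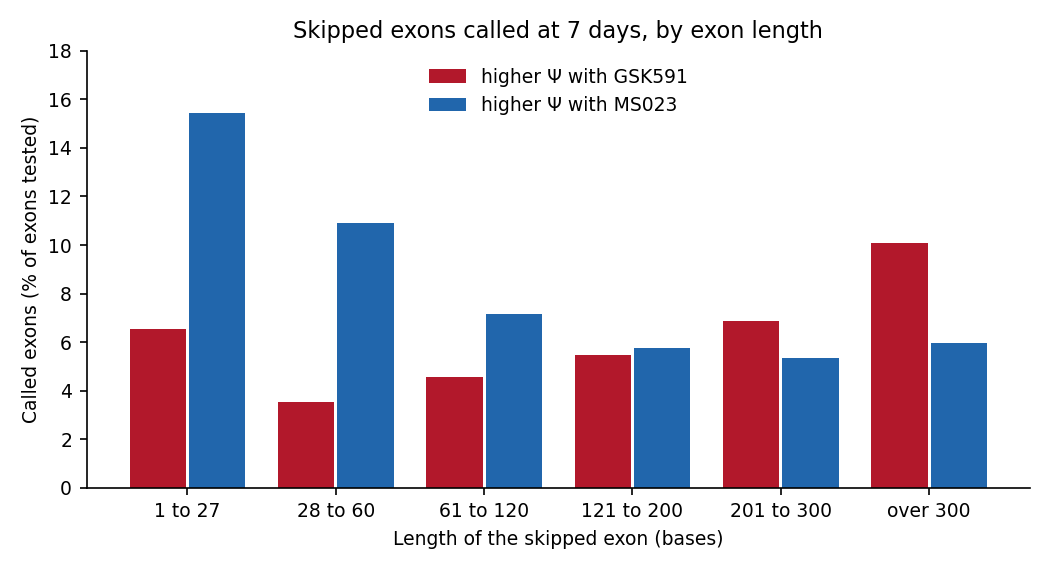
Skipped exons called at 7 days, as a percent of the exons tested in each class of exon length (bases), split by the inhibitor with the higher Ψ. In the class of 28 to 60 bases 148 exons were higher with GSK591 and 458 with MS023, and over 300 bases 231 and 137.

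Exons with the higher Ψ under MS023 lay beside a tested RI more often than all exons did. Of these 3139 exons, 296 had a flanking intron that was itself tested as RI (9.43%, beside 4.56% of all exons tested and 4.45% of the exons higher with GSK591). For 188 of these 296 exons (63.5%) the flanking intron was called as more retained with GSK591. Over all 2077 exons beside a tested RI this was so for 42.8%, and for the 107 exons higher with GSK591 for 33.6%. The exon and the intron are counted in the same libraries and partly from the same junction reads, so these shares describe the libraries and carry no test.

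Pairs of mutually exclusive exons are printed in the same way, each exon in capitals with its intron flanks in lower case, since the choice within a pair changes the protein. BIN1 bends membranes, TPM2 is a tropomyosin that lies along actin filaments, and SEC31A is a coat protein of COPII vesicles.
BIN1 upstream exon (chr2:127815049-127815177, - strand): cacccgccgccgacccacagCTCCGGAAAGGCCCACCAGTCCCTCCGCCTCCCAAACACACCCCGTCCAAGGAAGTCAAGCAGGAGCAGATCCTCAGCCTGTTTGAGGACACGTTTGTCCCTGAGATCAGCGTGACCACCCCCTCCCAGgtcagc
BIN1 downstream exon (chr2:127808730-127808819, - strand): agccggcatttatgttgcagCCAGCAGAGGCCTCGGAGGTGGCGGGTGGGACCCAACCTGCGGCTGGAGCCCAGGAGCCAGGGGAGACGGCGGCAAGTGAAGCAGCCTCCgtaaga
TPM2 upstream exon (chr9:35685061-35685136, - strand): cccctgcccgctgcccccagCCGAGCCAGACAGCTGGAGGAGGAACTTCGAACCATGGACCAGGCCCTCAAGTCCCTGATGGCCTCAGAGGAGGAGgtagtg
TPM2 downstream exon (chr9:35684729-35684804, - strand): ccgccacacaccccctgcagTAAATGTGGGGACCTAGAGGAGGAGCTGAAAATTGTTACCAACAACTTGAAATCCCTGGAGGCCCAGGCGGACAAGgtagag
SEC31A upstream exon (chr4:83783687-83783725, - strand): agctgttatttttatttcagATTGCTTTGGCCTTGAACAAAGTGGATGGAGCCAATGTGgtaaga
SEC31A downstream exon (chr4:83782784-83782861, - strand): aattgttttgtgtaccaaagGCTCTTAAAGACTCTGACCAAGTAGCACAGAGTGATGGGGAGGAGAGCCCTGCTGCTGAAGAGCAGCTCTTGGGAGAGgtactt

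For BIN1 the upstream exon was the main one of the pair with GSK591 and the downstream exon with MS023. Such a share leaves out transcripts that carry both exons or neither. The share of the upstream exon was 0.78, 0.756, and 0.796 with GSK591 and 0.346, 0.335, and 0.332 with MS023, and 0.273, 0.304, and 0.303 with DMSO (ΔΨ 0.44 ± 0.0124). GSK591 differed from DMSO by 0.484 (adjusted p 5.24e-09), and MS023 by 0.0446 (adjusted p 0.449), both in the quasi-binomial test. TPM2 had by far the deepest coverage of the named pairs, 3947 to 12549 reads per library. Its upstream exon had a share of 0.338, 0.339, and 0.332 with GSK591 and 0.66, 0.621, and 0.637 with MS023, and 0.44, 0.424, and 0.473 with DMSO (ΔΨ -0.303 ± 0.0115), so GSK591 and MS023 lay on opposite sides of DMSO, by -0.109 with GSK591 and 0.194 with MS023 (adjusted p 2.36e-08 and 3.9e-11). Both TPM2 exons have 76 bases, so the frame after them is the same with either. In SEC31A only MS023 passed the test against DMSO. Its Ψ was 0.303, 0.238, and 0.364 with GSK591 and 0.733, 0.594, and 0.74 with MS023, and 0.35, 0.355, and 0.36 with DMSO (ΔΨ -0.387 ± 0.0599). Its difference from DMSO was 0.334 with MS023 (adjusted p 0.000419) and -0.0536 with GSK591 (adjusted p 0.674). EEF1D encodes a subunit of the elongation factor 1 complex. Its Ψ was 0.359, 0.373, and 0.361 with GSK591 and 0.748, 0.848, and 0.843 with MS023, and 0.699, 0.683, and 0.705 with DMSO (ΔΨ -0.449 ± 0.0331). The scaffold gene RHPN1 went the other way, with a Ψ of 0.777, 0.824, and 0.891 with GSK591 and 0.416, 0.372, and 0.411 with MS023 (ΔΨ 0.431 ± 0.036). In limma the adjusted p of these 5 pairs was 0.0035 to 0.0317.

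Over all called MXE, the members of a pair had median lengths of 117 and 115 bases where the upstream exon was favoured with GSK591, and 108 and 118.5 where it was favoured with MS023. The lengths differed by a multiple of 3 in 41.9% and 36.8% of these pairs, beside 38.3% of all pairs tested. In the remaining pairs both choices lead to different reading frames unless a further exon makes up for it.

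The competing donors of 5 alternative 5′ splice sites are printed next, each with 3 bases of exon and 6 of intron and the invariant GT in capitals (GRCh37, strand of the gene). The downstream donor was used more with GSK591 in NT5C, NCBP2, and PABPC4, and more with MS023 in TMEM256-PLSCR3 and PCBP4.
NT5C upstream donor: aagGTgtgg
NT5C downstream donor: aagGTgggg
NCBP2 upstream donor: gctGTacgt
NCBP2 downstream donor: ggaGTatcc
PABPC4 upstream donor: ctgGTaatg
PABPC4 downstream donor: tcgGTgagc
TMEM256-PLSCR3 upstream donor: cagGTaagt
TMEM256-PLSCR3 downstream donor: cagGTgagt
PCBP4 upstream donor: gagGTgagg
PCBP4 downstream donor: gagGTgctg

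NT5C, a nucleotidase that acts on deoxyribonucleotides, had the largest A5SS difference toward GSK591. For its segment of 80 bases (chr17:73127060-73127139), Ψ was 0.727, 0.719, and 0.842 with GSK591 and 0.204, 0.197, and 0.218 with MS023, and 0.297, 0.273, and 0.276 with DMSO (ΔΨ 0.556 ± 0.0402). The downstream donor was thus the main one with GSK591 and the minor one in all libraries with MS023 or DMSO. BDH2, a dehydrogenase of ketone body metabolism, had a segment of 1131 bases (chr4:104006506-104007636) in which Ψ was 1 in each library with GSK591 and 0.386, 0.564, and 0.61 with MS023, and 0.74, 0.746, and 0.551 with DMSO (ΔΨ 0.48 ± 0.0681, 0.103 from unscaled reads). ZNF418 encodes a zinc finger protein. Its segment of 2354 bases (chr19:58436991-58439344) was one in which MS023 passed the test against DMSO and GSK591 did not (ΔΨ against DMSO -0.575 and -0.114, adjusted p 0.000533 and 0.359). Its Ψ was 0.8, 1, and 0.857 with GSK591 and 0.474, 0.369, and 0.432 with MS023, and 1 in each library with DMSO (ΔΨ 0.461 ± 0.0669, 0.0675 from unscaled reads). ZNF418 had 102 to 145 reads of both forms together per GSK591 or MS023 library, few of them skipping reads. Toward MS023, the read-through TMEM256-PLSCR3 had the largest difference again, now at a segment of 503 bases (chr17:7296920-7297422) that overlaps its skipped exon. The values were 0.149, 0.172, and 0.167 with GSK591 and 0.734, 0.781, and 0.759 with MS023, and 0.487, 0.446, and 0.607 with DMSO (ΔΨ -0.595 ± 0.0151). PCBP4 encodes a poly(C)-binding protein. At its segment of 294 bases (chr3:51993911-51994204), Ψ was 0.363, 0.394, and 0.252 with GSK591 and 0.828, 0.796, and 0.757 with MS023, and 0.584, 0.733, and 0.708 with DMSO (ΔΨ -0.457 ± 0.0479). For OGFOD2, a predicted dioxygenase, Ψ was 0.41, 0.504, and 0.382 with GSK591 and 0.793, 0.859, and 0.769 with MS023, and 0.913, 0.82, and 0.926 with DMSO (ΔΨ -0.375 ± 0.0454, -0.127 from unscaled reads). Limma gave adjusted p between 0.00678 and 0.0363 for these 6 events.

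Over called A5SS, the donors in competition differed by direction. Where the downstream donor was used more with GSK591 (551 events), the upstream donor shared 5.53 of 9 bases on average with CAGGTAAGT and the downstream donor 5.79. Where it was used more with MS023 (312 events) the means were 6.06 and 5.64, and over all A5SS tested 5.73 and 5.81. The upstream donor had G as the last exon base in 73.3% of events of the first kind and 85.3% of the second, beside 76.9% of all. In both directions, then, GSK591 libraries used more of the donor that was on average closer to this sequence. These means were not tested. Of the donor pairs printed above, those of TMEM256-PLSCR3 and PCBP4 followed the means. Those of NT5C, NCBP2, and PABPC4 did not, as their upstream donor shared as many or more bases with the sequence. Of called A5SS with the downstream donor higher under GSK591, 21.8% had a long exon known from decay transcripts alone, compared with 9.94% for MS023 and 16.1% of those tested. Long exons known from noncoding transcripts alone had the opposite order, at 19.1% and 34.9% beside 24.8%, and coding ones made up 40.1% and 41%.

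Among A3SS, the largest difference toward GSK591 was that of RNF216, an E3 ubiquitin ligase, at a segment of 269 bases (chr7:5778984-5779252) whose long exon is annotated in decay transcripts. Its upstream acceptor was all but unused with MS023, as Ψ was 0.525, 0.389, and 0.632 with GSK591 and 0.0165, 0.0192, and 0.0187 with MS023, and 0.115, 0.121, and 0.0456 with DMSO (ΔΨ 0.497 ± 0.0702). WBP1 encodes a ligand of WW domains. For its segment of 205 bases (chr2:74686565-74686769), Ψ was 0.899, 0.924, and 0.932 with GSK591 and 0.486, 0.323, and 0.488 with MS023, and 0.495, 0.425, and 0.4 with DMSO (ΔΨ 0.486 ± 0.0555), so MS023 and DMSO overlapped. In ECHDC2, a mitochondrial enoyl-CoA hydratase relative, MS023 and DMSO overlapped as well. Over its 1521 bases, Ψ was 0.843, 0.732, and 0.894 with GSK591 and 0.334, 0.396, and 0.351 with MS023, and 0.344, 0.501, and 0.4 with DMSO (ΔΨ 0.463 ± 0.0513, 0.118 from unscaled reads). Toward MS023, the membrane protein gene TMEM91 had a Ψ of 0.276, 0.266, and 0.261 with GSK591 and 0.601, 0.762, and 0.772 with MS023, and 0.519, 0.623, and 0.444 with DMSO (ΔΨ -0.444 ± 0.0556). TMEM141, which also encodes a membrane protein, was better covered (220 to 799 reads per library). Its Ψ was 0.301, 0.234, and 0.254 with GSK591 and 0.692, 0.685, and 0.635 with MS023, and 0.612, 0.65, and 0.619 with DMSO (ΔΨ -0.407 ± 0.0268). RHPN1 again differed, with a ΔΨ of -0.347 ± 0.0309, -0.213 from unscaled reads for a segment of 233 bases. The limma adjusted p of the 6 events was 0.0236 to 0.0454. Acceptors close together were seldom called. Of 663 A3SS at most 3 bases apart, 10 were called (1.51%), and of 461 at 4 to 10 bases 15 (3.25%), whereas 9.75% were called at 11 to 50 bases, 13.8% at 51 to 200, and 17.8% beyond 200. The median depth of the shallowest library was 65, 88, 102, 106.5, and 174.5 reads in these classes, and its part in the trend was not tested. For A5SS at 4 to 10 bases 70 of 367 were called (19.1%), next to 24.2% of all A5SS.

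Among the named RI, both directions were present. POLD1 encodes the catalytic subunit of DNA polymerase δ. In its intron of 569 bases (chr19:50919084-50919652), Ψ was 0.862, 0.803, and 0.747 with GSK591 and 0.169, 0.133, and 0.169 with MS023, and 0.285, 0.212, and 0.256 with DMSO (ΔΨ 0.647 ± 0.0352). The MS023 libraries lay below DMSO and the GSK591 libraries above it, with no overlap. The opposite order was rarer. In PCNXL2, a pecanex relative, Ψ was 0.155, 0.261, and 0.226 with GSK591 and 0.681, 0.608, and 0.92 with MS023, and 0.271, 0.432, and 0.476 with DMSO (ΔΨ -0.522 ± 0.0993, -0.212 from unscaled reads), and in SCLY, the selenocysteine lyase, Ψ was 0.503, 0.641, and 0.375 with GSK591 and 1 in each library with MS023, and 0.851, 0.864, and 0.645 with DMSO (ΔΨ -0.494 ± 0.0768, -0.0456 from unscaled reads). Limma gave these 3 RI adjusted p of 0.00098 to 0.0126. SCLY had 76 to 141 reads of both forms together per GSK591 or MS023 library, few of them skipping reads and none of those with MS023. RI more retained with MS023 were longer (median 379.5 bases) than those more retained with GSK591 (221.5), beside 251 for all RI tested. Their donors also lay closer to CAGGTAAGT, with 6.22 of 9 bases shared on average, compared with 5.66 and 5.91.

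Genes of the splicing machinery itself were followed as gene lists, with the exon events (SE, MXE, A3SS, and A5SS) counted together. These lists and those below were chosen with earlier results of these data known, so their shares are descriptive and carry no test. Over all genes 9389 of 81101 exon events were called (11.6%, 5.58% higher with GSK591 and 5.99% with MS023), with a median ΔΨ of 0 over events tested and a median of 127 reads in the shallowest library. Of all RI, 39.4% were called, and 82.5% of the called RI were higher with GSK591, against which the RI of each list are to be read. For the classical SR proteins, which bind exonic enhancers, 16 of 49 exon events in 9 genes were called (32.7%), 10 with the higher Ψ under GSK591 and 6 under MS023, along with 3 of 6 RI (50%, 2 higher with GSK591). For TRA2 and SR-like regulators, 29 of 199 exon events in 19 genes were called (14.6%), 18 with the higher Ψ under GSK591 and 11 under MS023, along with 6 of 11 RI (54.5%, 6 higher with GSK591). In hnRNP genes, 60 of 274 exon events in 21 genes were called (21.9%), 22 with the higher Ψ under GSK591 and 38 under MS023, along with 12 of 17 RI (70.6%, 11 higher with GSK591). In RBM, TIA, PTB, and FET genes, 74 of 529 exon events in 43 genes were called (14%), 32 with the higher Ψ under GSK591 and 42 under MS023, along with 23 of 47 RI (48.9%, 18 higher with GSK591). Limma called 5 of 49, 3 of 199, 14 of 274, and 24 of 529 exon events of these lists in turn, beside 4.7% of all exon events (3811 of 81101). Beside that share, limma called more of the SR list, less of the TRA2 and SR-like list, and about as much of the other lists. The limma counts of the lists below are to be read against the same 4.7%. The shallowest library had a median of 592 reads in SR genes, 1099.5 in hnRNP genes, 287 in TRA2 and SR-like genes, and 222 in the last list, and the part of depth in the counts was not tested. The median ΔΨ over events tested was 0 in each of these 4 lists, and over called events 0.0298, 0.0317, -0.0178, and -0.0154.

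The named events of these lists went in both directions. The exon of 51 bases of SRSF10, an SR protein that can also repress splicing, is printed above. Its Ψ was 0.555, 0.477, and 0.537 with GSK591 and 0.921, 0.891, and 0.964 with MS023, and 0.881, 0.882, and 0.856 with DMSO (ΔΨ -0.403 ± 0.0315, limma adjusted p 0.0248). In PCBP2, a poly(C)-binding protein, an exon of 39 bases was the best covered of the printed exons, with 1810 to 2708 reads per library. Its Ψ was 0.138, 0.176, and 0.146 with GSK591 and 0.555, 0.583, and 0.579 with MS023, and 0.465, 0.52, and 0.513 with DMSO (ΔΨ -0.419 ± 0.0146, limma adjusted p 0.0171). GSK591 libraries thus skipped the exon in most transcripts. LUC7L, a U1-associated protein, differed in the opposite direction. For its exon of 70 bases, which shifts the frame, Ψ was 0.459, 0.458, and 0.367 with GSK591 and 0.0421, 0.0332, and 0.028 with MS023, and 0.0846, 0.138, and 0.0833 with DMSO (ΔΨ 0.393 ± 0.0308, limma adjusted p 0.0156). The intron of 117 bases of HNRNPM (chr19:8530247-8530363) was deeply covered too. Its Ψ was 0.658, 0.617, and 0.614 with GSK591 and 0.313, 0.327, and 0.317 with MS023, and 0.437, 0.473, and 0.45 with DMSO (ΔΨ 0.311 ± 0.0147, limma adjusted p 0.00214). For MBNL1, a muscleblind regulator of exon choice, the exon of 95 bases (chr3:152174056-152174150) gave a ΔΨ of -0.306 ± 0.0242 (limma adjusted p 0.0306). U2AF1, the small subunit of the acceptor reader U2AF, gave -0.225 ± 0.0145 at an exon of 67 bases (chr21:44520563-44520629, limma adjusted p 0.0493). Its Ψ was 0.268, 0.295, and 0.285 with GSK591 and 0.484, 0.513, and 0.525 with MS023. Smaller differences were those of the exon of 175 bases of SRSF4 that annotated decay transcripts carry (ΔΨ 0.0607 ± 0.0153, 0.118 from unscaled reads, limma adjusted p 0.0427, voom 0.0542) and an intron of SRSF7 (ΔΨ 0.0928 ± 0.00574, 0.19 from unscaled reads, limma adjusted p 0.0096). An intron of EWSR1, a FET protein, gave 0.471 ± 0.0653, 0.272 from unscaled reads (limma adjusted p 0.00972). A long A3SS segment of SREK1 gave 0.293 ± 0.0649, 0.0228 from unscaled reads, without passing limma (adjusted p 0.0622), and the RI of TRA2A (ΔΨ 0.152 ± 0.0391, 0.0796 from unscaled reads, limma adjusted p 0.043, voom 0.0623) lost its call without any 1 of 4 libraries, GSK591 a or c or MS023 a or b (ΔΨ 0.128 to 0.148, adjusted p up to 0.183).

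**Figure D4:**
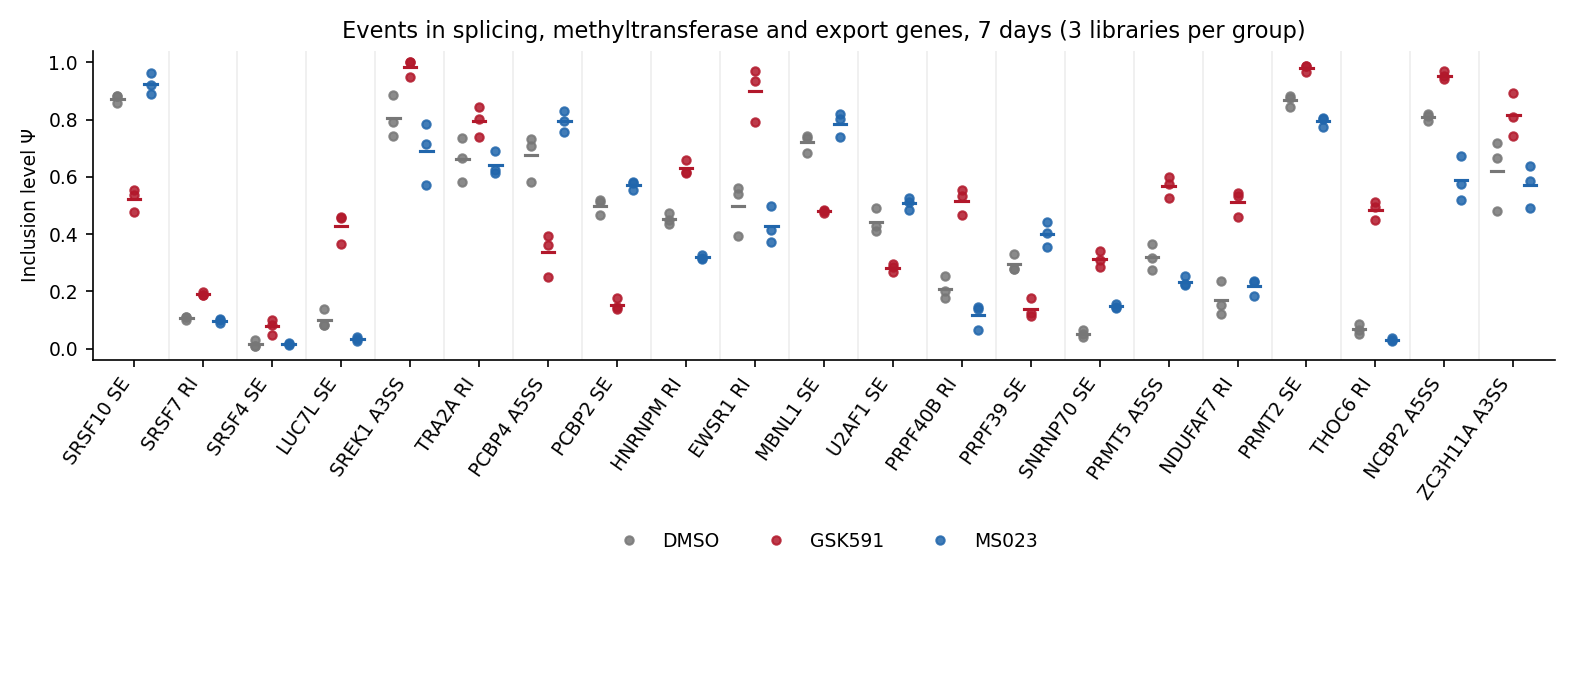
Inclusion level Ψ (vertical axis, 0 to 1) in each of 3 libraries with DMSO, GSK591, or MS023 at 7 days, for named events in genes of SR, hnRNP, and other splicing proteins, snRNP proteins, arginine methyltransferases, and export factors. Points are libraries and bars are group means. In SRSF10, PCBP2, and U2AF1 the GSK591 libraries lie below the others, and in LUC7L, THOC6, and NCBP2 above them.

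Among Sm core and snRNP proteins, 57 of 357 exon events in 50 genes were called (16%), 33 with the higher Ψ under GSK591 and 24 under MS023 (limma 26), along with 10 of 17 RI (58.8%, 8 higher with GSK591). The median depth of the list was 411 reads. SNRNP70, the U1 70K protein, had an exon of 1474 bases (chr19:49605371-49606844) that is annotated in decay transcripts and was covered by 4091 to 4999 reads per library. Its Ψ was 0.343, 0.309, and 0.286 with GSK591 and 0.156, 0.142, and 0.146 with MS023, and 0.0394, 0.0533, and 0.0643 with DMSO (ΔΨ 0.164 ± 0.017). Both inhibitors thus lay above DMSO, and GSK591 above MS023, although limma missed the threshold (adjusted p 0.0526). An exon of 100 bases of PRPF39, a U1 snRNP protein, went the other way (ΔΨ -0.261 ± 0.032, limma adjusted p 0.0358, voom 0.0541), and an intron of PRPF40B, also of U1, gave 0.401 ± 0.0366 (limma adjusted p 0.00373). For mRNA export factors, 18 of 204 exon events in 20 genes were called (8.82%), 13 with the higher Ψ under GSK591 and 5 under MS023 (limma 5), along with 9 of 17 RI (52.9%, 9 higher with GSK591). Here the depth was 186.5 reads. An intron of 100 bases of THOC6, a subunit of the THO complex (chr16:3075825-3075924), was nearly always spliced with MS023. Its Ψ was 0.512, 0.496, and 0.45 with GSK591 and 0.0267, 0.0289, and 0.0387 with MS023, and 0.0877, 0.0516, and 0.0667 with DMSO (ΔΨ 0.454 ± 0.0187, limma adjusted p 0.000716). NCBP2, the small subunit of the cap-binding complex, used its downstream donor more with GSK591 (chr3:196666122-196666263), and Ψ was 0.941, 0.968, and 0.951 with GSK591 and 0.574, 0.673, and 0.518 with MS023, and 0.818, 0.811, and 0.796 with DMSO (ΔΨ 0.365 ± 0.046, 0.241 from unscaled reads, limma adjusted p 0.00741). ZC3H11A gave a ΔΨ of 0.243 ± 0.0612, 0.129 from unscaled reads, which limma did not call (adjusted p 0.132) and which was lost without MS023 library a (ΔΨ 0.203, adjusted p 0.0661).

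In arginine methyltransferases and their cofactors, 16 of 134 exon events in 15 genes were called (11.9%), 10 with the higher Ψ under GSK591 and 6 under MS023 (limma 10), along with 5 of 12 RI (41.7%, 4 higher with GSK591), both shares close to the 11.6% and 39.4% over all genes, at a median depth of 187 reads. PRMT5 itself, the target of GSK591, had an A5SS of 371 bases (chr14:23397335-23397705) in which Ψ was 0.601, 0.574, and 0.527 with GSK591 and 0.223, 0.254, and 0.228 with MS023, and 0.317, 0.275, and 0.364 with DMSO (ΔΨ 0.333 ± 0.0235, limma adjusted p 0.0108). Its coverage was low, at 57 to 93 reads per library, and the long exon is found in noncoding transcripts. PRMT2, a Type I enzyme, had an exon of 172 bases (chr21:48083295-48083466) that all but a few transcripts carried with GSK591 (Ψ 0.967, 0.988, and 0.988) and fewer with MS023 (0.807, 0.801, and 0.775), a ΔΨ of 0.187 ± 0.0123, 0.0984 from unscaled reads (limma adjusted p 0.0197). NDUFAF7, a mitochondrial arginine methyltransferase of complex I assembly, gave a ΔΨ of 0.294 ± 0.0308 at an intron of 843 bases (limma adjusted p 0.00408). In splicing kinases, 12 of 86 exon events in 13 genes were called (14%), 7 with the higher Ψ under GSK591 and 5 under MS023 (limma 4), along with 7 of 17 RI (41.2%, 4 higher with GSK591). SRPK2, which phosphorylates SR proteins, gave a ΔΨ of 0.292 ± 0.0422 at an exon of 93 bases (limma adjusted p 0.0755), and the donor choice of CDK11A a ΔΨ of -0.265 ± 0.0554 (limma adjusted p 0.0497). CLK4 gave 0.329 ± 0.108, 0.126 from unscaled reads, which limma did not call (adjusted p 0.0902) and which was lost without GSK591 library a (ΔΨ 0.263) or MS023 library b (ΔΨ 0.276, adjusted p up to 0.0823).

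In genes with exons that switch between epithelial and mesenchymal cells, 117 of 605 exon events in 40 genes were called (19.3%), 53 with the higher Ψ under GSK591 and 64 under MS023 (limma 53), along with 7 of 12 RI (58.3%, 6 higher with GSK591), at a median depth of 168 reads. EXOC7 encodes a subunit of the exocyst. For its exon of 93 bases, printed above, Ψ was 0.499, 0.608, and 0.58 with GSK591 and 0.168, 0.111, and 0.158 with MS023, and 0.336, 0.36, and 0.315 with DMSO (ΔΨ 0.416 ± 0.0372, limma adjusted p 0.0202). LRRFIP2 takes part in Wnt and Toll-like receptor signalling. Its exon of 72 bases had a Ψ of 0.947, 0.914, and 0.941 with GSK591 and 0.577, 0.502, and 0.558 with MS023, and 0.769, 0.79, and 0.771 with DMSO (ΔΨ 0.388 ± 0.0246, limma adjusted p 0.0171). MAP3K7, the kinase TAK1, went the other way, since Ψ was 0.057, 0.057, and 0.0819 with GSK591 and 0.48, 0.409, and 0.43 with MS023, and 0.281, 0.236, and 0.166 with DMSO (ΔΨ -0.374 ± 0.0228, limma adjusted p 0.0169). In all 3 exons DMSO lay between the inhibitors. In a list of genes drawn up for mutually exclusive exons, 114 of 426 exon events in 31 genes were called (26.8%, limma 55). Of the 114, 57 had the higher Ψ under GSK591 and 57 under MS023. Of 20 RI, 13 were called (65%, 11 higher with GSK591), and the median depth was 294.5 reads. Beside the TPM2 pair the largest were 2 SE and not pairs. PARP6, a mono-ADP-ribosyltransferase, had an exon of 110 bases (ΔΨ -0.404 ± 0.0338, limma adjusted p 0.0188). FGFR1, a growth factor receptor, had an exon of 151 bases (ΔΨ 0.264 ± 0.00748, limma adjusted p 0.018). For FGFR1, Ψ was 0.337, 0.332, and 0.346 with GSK591, 0.072, 0.086, and 0.0649 with MS023, and 0.0338, 0.0941, and 0.0904 with DMSO.

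In regulators of p53, 25 of 217 exon events in 24 genes were called (11.5%), 13 with the higher Ψ under GSK591 and 12 under MS023 (limma 6), along with 1 of 2 RI (50%, 1 higher with GSK591), near the background. The exon of 98 bases of the mitotic kinase AURKA, which lies in an untranslated region, had a Ψ of 0.505, 0.559, and 0.577 with GSK591 and 0.274, 0.277, and 0.322 with MS023, and 0.236, 0.275, and 0.232 with DMSO (ΔΨ 0.256 ± 0.0266, limma adjusted p 0.0466, voom 0.0823). The acetyltransferase CREBBP gave a ΔΨ of -0.281 ± 0.0655 at an exon of 45 bases (limma adjusted p 0.0633), and the ligase TRIM24 0.153 ± 0.0597 (limma adjusted p 0.139, and up to 0.222 in the quasi-binomial test without GSK591 library b or c or MS023 library b or c, at ΔΨ of 0.109 to 0.159). In apoptosis genes, 18 of 242 exon events in 27 genes were called (7.44%), 6 with the higher Ψ under GSK591 and 12 under MS023 (limma 9), along with 3 of 9 RI (33.3%, 2 higher with GSK591), below the background. NUMB, an inhibitor of Notch, skipped its exon of 144 bases more with GSK591 (Ψ 0.0758, 0.121, and 0.155) than with MS023 (0.378, 0.364, and 0.422), a ΔΨ of -0.271 ± 0.029 (limma adjusted p 0.0368). The ΔΨ of CASP8 was 0.145 ± 0.0107 and that of BCL2L13 0.186 ± 0.0527, neither past limma (adjusted p 0.0506 and 0.0549), and BCL2L13 was lost without MS023 library a or b (ΔΨ 0.169 and 0.152, adjusted p up to 0.0645). In factors of nonsense-mediated decay, 36 of 194 exon events in 21 genes were called (18.6%), 21 with the higher Ψ under GSK591 and 15 under MS023 (limma 16), along with 4 of 12 RI (33.3%, 3 higher with GSK591). UPF3A, which binds the exon junction complex, carried its exon of 107 bases more with GSK591, as Ψ was 0.912, 0.938, and 0.951 with GSK591 and 0.608, 0.582, and 0.598 with MS023, and 0.743, 0.703, and 0.707 with DMSO (ΔΨ 0.338 ± 0.0137, limma adjusted p 0.0177). PABPC4, a poly(A)-binding protein, used its downstream donor more with GSK591 (ΔΨ 0.252 ± 0.0172 at chr1:40030095-40030142, limma adjusted p 0.012). The helicase UPF1 gave 0.15 ± 0.0518 (limma adjusted p 0.0996).

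DNA repair genes had a smaller share of calls than all genes, and the shallowest events of the lists. There 90 of 1160 exon events in 94 genes were called (7.76%), 42 with the higher Ψ under GSK591 and 48 under MS023 (limma 45), along with 13 of 43 RI (30.2%, 11 higher with GSK591), at a median of 63 reads in the shallowest library, and the part of depth was not tested. RAD51C, a recombinase of homologous repair, skipped its exon of 64 bases more with GSK591 (Ψ 0.575, 0.565, and 0.523) than with MS023 (0.917, 0.851, and 0.973), a ΔΨ of -0.359 ± 0.0387 (limma adjusted p 0.0485, voom 0.0652). An intron of 83 bases of MUTYH, a glycosylase of base excision repair, gave 0.373 ± 0.11 with wide replicates (Ψ 0.628, 0.482, and 0.858 with GSK591, limma adjusted p 0.0396). ERCC1, of nucleotide excision repair, gave -0.299 ± 0.0903 at an exon of 69 bases, where 1 GSK591 library stood apart (Ψ 0.326, 0.553, and 0.284) and limma did not call it (adjusted p 0.113). In mitosis genes, 85 of 929 exon events in 88 genes were called (9.15%), 37 with the higher Ψ under GSK591 and 48 under MS023 (limma 33), along with 8 of 32 RI (25%, 7 higher with GSK591), at a median depth of 105 reads. Beside AURKA, the largest were those of the augmin subunits HAUS5 and HAUS7. An intron of HAUS5 gave a ΔΨ of 0.419 ± 0.0467 (limma adjusted p 0.0042), and the exon of 177 bases of HAUS7 (chrX:152720335-152720511) gave -0.25 ± 0.0116 (limma adjusted p 0.0178), with a Ψ of 0.0728, 0.0657, and 0.058 with GSK591 and 0.336, 0.3, and 0.311 with MS023, and 0.22, 0.167, and 0.279 with DMSO.

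The values with DMSO place each direct difference. Both comparisons with DMSO share the control libraries, so their values are only set side by side. Against DMSO the same test called 5475 SE with GSK591 (9.21%) and 3141 with MS023 (5.2%), 770 and 377 MXE (5.9% and 2.85%), 386 and 222 A3SS (6.92% and 3.94%), 623 and 235 A5SS (17.3% and 6.41%), and 1064 and 450 RI (28.1% and 11.9%). By direction, called SE were 2343 higher and 3132 lower than DMSO with GSK591, and 1615 and 1526 with MS023. For MXE these were 312 and 458, then 111 and 266, so both inhibitors leaned to the downstream exon. For A3SS they were 199 and 187, then 57 and 165. For A5SS they were 350 and 273, then 56 and 179, and for RI 833 and 231, then 75 and 375. For the direct calls, the median difference from DMSO had opposite signs for both inhibitors in every type and direction, and was larger for GSK591 in each. In SE higher with GSK591 it was 0.0292 with GSK591 and -0.0236 with MS023, and in SE higher with MS023 -0.051 with GSK591 and 0.0161 with MS023. In A5SS the medians were 0.0568 with GSK591 and -0.0268 with MS023 for the first direction and -0.0706 with GSK591 and 0.0107 with MS023 for the second. In MXE they were 0.0565 with GSK591 and -0.0324 with MS023, then -0.0657 with GSK591 and 0.0129 with MS023, and in A3SS 0.041 with GSK591 and -0.0279 with MS023, then -0.0579 with GSK591 and 0.0162 with MS023. RI higher with GSK591 stood at a median Ψ of 0.236 with GSK591, 0.0939 with MS023, and 0.131 with DMSO. Since DMSO did not enter the choice of these events while both inhibitors did, the position of DMSO between them is partly set by that choice.

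The same contrast at 4 and 2 days rests on other libraries. At 4 days GSK591 against MS023 called 8674 of 48007 SE (18.1%), 1025 of 8292 MXE (12.4%), 773 of 5246 A3SS (14.7%), 1025 of 3366 A5SS (30.5%), and 1745 of 3750 RI (46.5%). At 2 days the counts were 6187 of 47169 (13.1%), 371 of 8237 (4.5%), 485 of 5116 (9.48%), 757 of 3289 (23%), and 1305 of 3688 (35.4%). Of 8728 exon events called at 7 days and tested at 4 days, 8172 had a ΔΨ of the same sign at 4 days (93.6%), compared with 62.7% of the events not called at 7 days, and 5486 were called at 4 days with that sign. At 2 days 7728 of 8648 had the same sign (89.4%, beside 60.8%). The median size of the 7-day difference was 0.085 in these events, and in the same direction the median was 0.0641 at 4 days and 0.0442 at 2 days. The events were chosen by the 7-day values, a choice that favours larger values at 7 days. Of 3871 exon events with an absolute ΔΨ of at least 0.1 at 7 days, 8 were called with the opposite sign at 4 days.

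**Figure D5:**
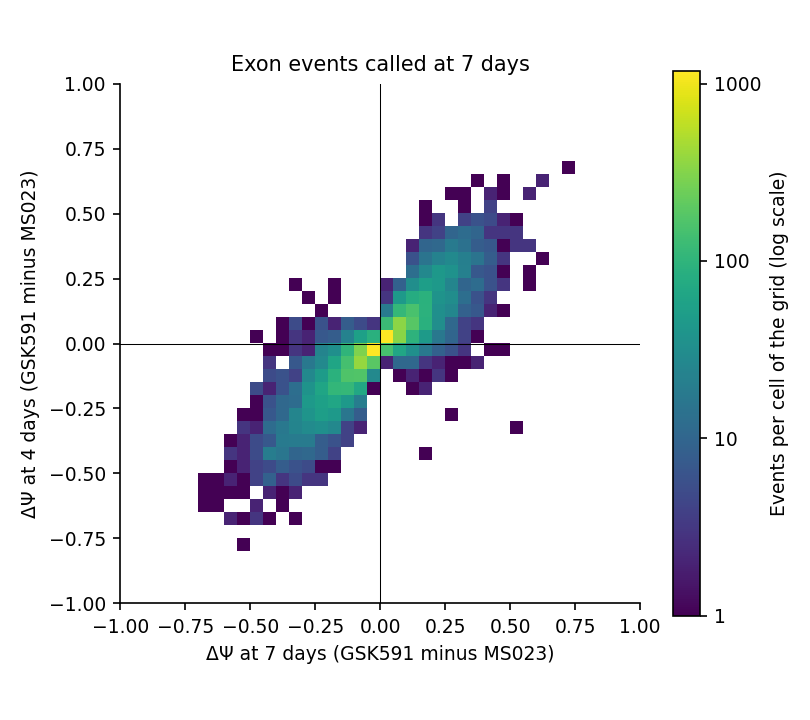
ΔΨ (GSK591 minus MS023) at 7 days (horizontal axis) and at 4 days (vertical axis) for the exon events called at 7 days, as counts in a grid with steps of 0.05 and a log color scale. Of 8728 events 8172 lie in the lower left and upper right corners, where both days have the same sign.

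Of the 73 named events, 70 could be tested at 4 days, 67 had the same sign there, and 62 were called with it. The exceptions in sign were TRA2A, CLK4, and AURKA, whose ΔΨ at 4 days was -0.0365, -0.0404, and -0.00529. At 2 days the sign was opposite in BDH2 (ΔΨ -0.00396, adjusted p 0.869) and in SNRNP70 (ΔΨ -0.0171), where the quasi-binomial test called it (adjusted p 4.69e-10). Several of the largest events differed on each day. RAB11FIP3 had a ΔΨ of 0.627 at 7 days, 0.617 at 4 days, and 0.406 at 2 days. PCBP2 stood at -0.419, -0.437, and -0.372, and NT5C at 0.556, 0.577, and 0.467. BIN1 was larger at 7 days (0.44) than at 4 or 2 days (0.228 and 0.228), though the difference between 7 and 4 days missed the threshold (adjusted p 0.0577 in the quasi-binomial interaction). That interaction was called for 188 of 46131 SE (0.408%), 53 of 8096 MXE (0.655%), 30 of 4999 A3SS (0.6%), 35 of 3216 A5SS (1.09%), and 147 of 3634 RI (4.05%), 5 of them named events.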

How the data were processed

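Poly(A)-RNA seq libraries of A549 cells with GSK591, MS023, or DMSO were analyzed from event tables that the authors deposited. Per the labels and the study's methods, the authors trimmed reads with Trim Galore 0.6.5, aligned them to hg19 with STAR 2.4.2a, and ran rMATS for each inhibitor against DMSO. A deposited cell joins the counts of inclusion or skipping reads of 3 libraries with commas, so libraries are named a, b, and c by place and carry no replicate number. The control of both 7-day tables was taken to be DMSO at 7 days. The deposited fold-type columns (ΔΨ, p-value, and FDR) hold the authors' own comparisons and were not used, and 0 columns of per-sample counts went unused.

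Events with at least 10 reads in each of 6 libraries were fitted with a quasi-binomial logistic model in R 4.3.3. Dispersions were moderated with limma 3.58.1 (squeezeVar, held at 1 or above), and p-values were adjusted by Benjamini-Hochberg within each event type, with 0.05 as threshold. The dispersion prior was taken from events with a dispersion above 0, a choice made after seeing the data. Library medians were compared by two-sided exact permutation. The code was tested on simulated data. Named events are, among called events with at least 50 reads in each library and 1 event per gene, the largest without overlap in each direction (5 for SE, 3 for A3SS and A5SS, 2 for MXE and RI) and at most 3 for each of 15 gene lists. Of these named events, 1 is not reported here. The members and lists were chosen with earlier results of these data known. Annotation and sequences came from GRCh37, the build of the coordinates. Alternatives were limma on log2 odds (0.5 added to counts), limma voom, other priors and read minimums, no effective lengths, and each library left out.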

Additional observations from a re-analysis of the deposited data

Results flagged for a closer look

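The direct difference between GSK591 and MS023 differed between 7 and 4 days in 5 of 70 named events by the interaction term of the quasi-binomial model. Over all events tested, this term was called in 0.408% of SE, 0.655% of MXE, 0.6% of A3SS, 1.09% of A5SS, and 4.05% of RI. The named events were chosen by their size at 7 days, a choice that favours larger values at 7 days. The decay exon of SNRNP70 had a ΔΨ of 0.164 at 7 days and 0.0201 at 4 days (adjusted p 1.31e-07). The intron of HNRNPM had a ΔΨ of 0.311 at 7 days and 0.226 at 4 days (adjusted p 0.00347). The upstream exon of TPM2 had a ΔΨ of -0.303 at 7 days and -0.372 at 4 days (adjusted p 0.00373). The exon of TBL1X had a ΔΨ of 0.623 at 7 days and 0.312 at 4 days (adjusted p 0.023). The exon of C16orf13 had a ΔΨ of -0.565 at 7 days and -0.406 at 4 days (adjusted p 0.0471). At 2 days the ΔΨ of SNRNP70 was -0.0171, of the opposite sign and called (adjusted p 4.69e-10 in the quasi-binomial test). In SNRNP70 the mean Ψ at 4 days was 0.13 with GSK591 and 0.11 with MS023, and at 7 days 0.312 and 0.148. Limma on log2 odds gave an adjusted p of 0.371 to 0.633 for these interactions. Over all events, limma called 0 interactions of each type. Its unadjusted p was under 0.05 in 3641 of 46131 SE, 653 of 8096 MXE, 387 of 4999 A3SS, 247 of 3216 A5SS, and 481 of 3634 RI. The labels give no batch, so the day of treatment and the day of library preparation or sequencing cannot be told apart.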

How the results depend on the processing

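No paired analysis was possible because the counts of the libraries carry no replicate number. Calls under limma on log2 odds numbered 2870 SE, 462 MXE, 67 A3SS, 412 A5SS, and 1114 RI, and under limma voom 2425 SE, 160 A3SS, and 471 A5SS (MXE and RI stayed within 1.5 times). With a dispersion prior from all events they were 313 SE, 403 MXE, 48 A3SS, and 277 A5SS. That prior, a prior with a trend, and voom were chosen after seeing the data. A ΔΨ of at least 0.1 left 2986 SE, 509 MXE, 288 A3SS, 422 A5SS, and 736 RI. Without 1 library the calls ranged from 3410 to 4784 SE, 681 to 942 MXE, 325 to 454 A3SS, 607 to 723 A5SS, and 1297 to 1371 RI, with the fewest SE and MXE without MS023 library c and the fewest A3SS without GSK591 library c. The SE count moved by over 1.5 times without GSK591 library b (4365) or c (4559) or MS023 library a (3604) or b (3553), and the A3SS count without GSK591 library a (398) or MS023 library a (341) or c (390). The difference in the library median of Ψ was 0.000698 for SE, 0.011 for A5SS, and 0.127 for RI without effective lengths, and 0.00524 for A3SS and 0.00691 for A5SS at a minimum of 20 reads. Limma called 0 interactions between 7 and 4 days for SE, MXE, A3SS, A5SS, and RI. No result changed direction under these settings. A minimum of 1 read, adjustment over all 5 types, and no lower limit on the dispersion kept each count within 1.5 times. The count model planned as a further alternative was not run, since the joined cells are not a plain count table. Of the 73 named events, 62 passed the threshold in limma, 59 in limma voom, and 68 whichever library was left out. Without effective lengths the ΔΨ of 48 of the 73 moved by more than the spread between replicates, the most in SREK1 (0.293 to 0.0228) and SCLY (-0.494 to -0.0456). The cause of these changes was not tested.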

Other observations

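Calls of several event types met in the same genes. Of the 4572 genes with a called event, 3150 had calls of 1 event type, 971 of 2, 329 of 3, 97 of 4, and 25 of all 5 types. Of the 25, the 5 with the most called events are named, a choice made after their values were seen. ABCC3, which encodes a transporter of organic anions, had 33 called events with a largest absolute ΔΨ of 0.514 between GSK591 and MS023. GAS5, a noncoding host gene of small nucleolar RNAs, had 33 as well, with a largest absolute ΔΨ of 0.186. The antisense gene C17orf76-AS1 had 29 (largest 0.141), and ACADVL, an acyl-CoA dehydrogenase of fatty acid oxidation, had 28 (largest 0.341). EEF1D had 27 of 88 events tested (largest 0.449). Over all events tested, 12.8% were called. A gene with more events tested can have more events called, so this order does not show which genes had the larger share called. Events of 1 gene share exons and reads, so these counts are not independent, and the part of read depth in them was not tested.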
